A study of Mus musculus with 12 samples.

Results

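Cholesterol and fatty acid synthesis genes were examined in whole kidneys of 12 mice aged 18 days. The members were 31 genes taken by name from the 54532 genes of the count table, and each name matched 1 row. They comprised 7 enzymes of the mevalonate route up to squalene and 9 enzymes from squalene to cholesterol. The others were 6 genes of SREBP control and sterol transport, and 9 genes of fatty acid synthesis, elongation and desaturation. All 31 passed the filter on low counts that left 24642 genes to test, with 10 to 10914 reads per member and mouse.

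The mice were labelled C57BL/6 (C57BL/6 J in the study's methods), in 4 groups of 3, and all carried Pkd1 RC, a missense allele that lowers the amount of functional polycystin-1. Noncystic mice were Pkd1 RC/+ (a floxed allele F in place of +, with no Cre), and either Pkd2 +/+ (mice 19 to 21) or Pkd2 Δ17/Δ17 (mice 22 to 24), in which the miR-17 binding motif of the Pkd2 3′-UTR was deleted. Cystic mice carried Ksp-Cre, which acts in kidney tubules, so that F was inactivated there and Pkd1 was RC/-, with Pkd2 +/+ (mice 25 to 27) or Pkd2 Δ17/Δ17 (mice 28 to 30). Cre and the cystic state therefore cannot be told apart. Whole kidneys were homogenised, so for every gene fewer cells of a type and less RNA per cell cannot be told apart.

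Cells make cholesterol from acetyl-CoA through mevalonate and squalene, and make fatty acids from the same precursor by carboxylation and chain extension. Both routes are driven by the SREBP transcription factors, which are held in the endoplasmic reticulum by Scap and Insig proteins while sterol is plentiful and are released to the nucleus when it falls. In the kidney, proximal tubule cells run mainly on fatty acid oxidation.

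Libraries held 18800307 to 24453033 reads assigned to genes. Pkd2, the edited gene, was at 194 to 219 CPM (read counts scaled to library size by TMM) in noncystic Pkd2 +/+ mice and 270 to 286 CPM in noncystic Pkd2 Δ17/Δ17 mice, and at 213 to 233 against 307 to 337 CPM in the cystic groups. The kidney markers Lrp2, Slc34a1, Umod, Aqp2, Cdh16 and Nphs1 were present in every library. Mice 27 and 30 stood apart by adrenal gland markers, with 66.3 and 485 summed CPM over 8 genes against 4.2 to 7.4 CPM in the other 10 mice. The fat tissue markers (8 genes summed) ran from 9.44 CPM in mouse 29 to 722 CPM in mouse 20. Cystic mice had 9.44 to 198 CPM and noncystic mice 268 to 722 CPM, without overlap. A fat covariate therefore follows the cystic state and cannot be cleanly told apart from it in the cystic comparisons. Each member's call that was lost without mice 27 and 30, without mice 20 and 29, or with the fat markers other than Lep as a covariate (all 3 chosen after the data were seen) is named below beside its values. Both sexes were present by Xist in each group.

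Promoter sequence was read for the members because many are known SREBP targets. RefSeq windows on GRCm38.p6, from 250 bases before to 50 after each start, were found for 24 of the 31 members (32 windows). The sterol regulatory element, written TCACNCCAC and searched on both strands, matched in 1 member, Hmgcs1. That was 3.12% of the members' windows, against 1.24% of all 32851 promoters. The shorter core CACNCCAC, which overlaps this element, matched in Hmgcs1 and Insig1 (6.25% of the members' windows) and in 6.24% of all promoters. The CCAAT box, bound by NF-Y, matched in 20 of the 24 members (65.6% of their windows) and in 37.4% of all promoters. The shorter core and the CCAAT box were chosen after the first motif had been counted, and a match is a description of the sequence only. The following stretches show the sterol element of the member with the highest level per length and the CCAAT box (read as ATTGG on the gene's own strand) of 3 members called below, with the motif in capitals.
Hmgcs1 (chr13:119690204-119690233, + strand): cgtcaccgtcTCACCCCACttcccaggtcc
Mvk (chr5:114444243-114444272, + strand): tccagctctctgATTGGcctcaggaagaca
Ebp (chrX:8193550-8193579, - strand): atccctgtactgATTGGttcgtcagattcg
Fasn (chr11:120824589-120824618, - strand): cctcggtgtccaATTGGtttcgatgtggag
The Hmgcs1 motif began 137 bases before the RefSeq start. Hmgcs1 also held a CCAAT box, and Ebp, Mvk and Fasn held no sterol element of either spelling in these windows.

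Members differed widely in level. Per kilobase of exonic length in noncystic Pkd2 +/+ mice, Hmgcs1, the enzyme that makes HMG-CoA, was first at 98.9 ± 6.23 CPM per kb (SD, n = 3). Acly, which makes cytosolic acetyl-CoA from citrate, followed at 41.9 ± 1.77 CPM per kb, and Scd2, a stearoyl-CoA desaturase, at 39.0 ± 2.23 CPM per kb. Ebp, the sterol isomerase, came next at 33.6 ± 1.25 CPM per kb. From Elovl5, the next, down through Mvd, Fads2, Insig2 and Srebf2 to Scd1, each neighbour lay within the larger SD of the pair. At the low end stood Acaca at 1.65 ± 0.172 CPM per kb, where 42.8% of 100-base words are shared with Gm5182 and the level is uncertain because only uniquely mapped reads were counted, and Fdps at 0.207 ± 0.0246 CPM per kb. In cystic Pkd2 +/+ mice the order at the top was different, with Scd2 at 74.4 ± 4.01 and Hmgcs1 at 48.0 ± 4.06 CPM per kb.

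**Figure D1:**
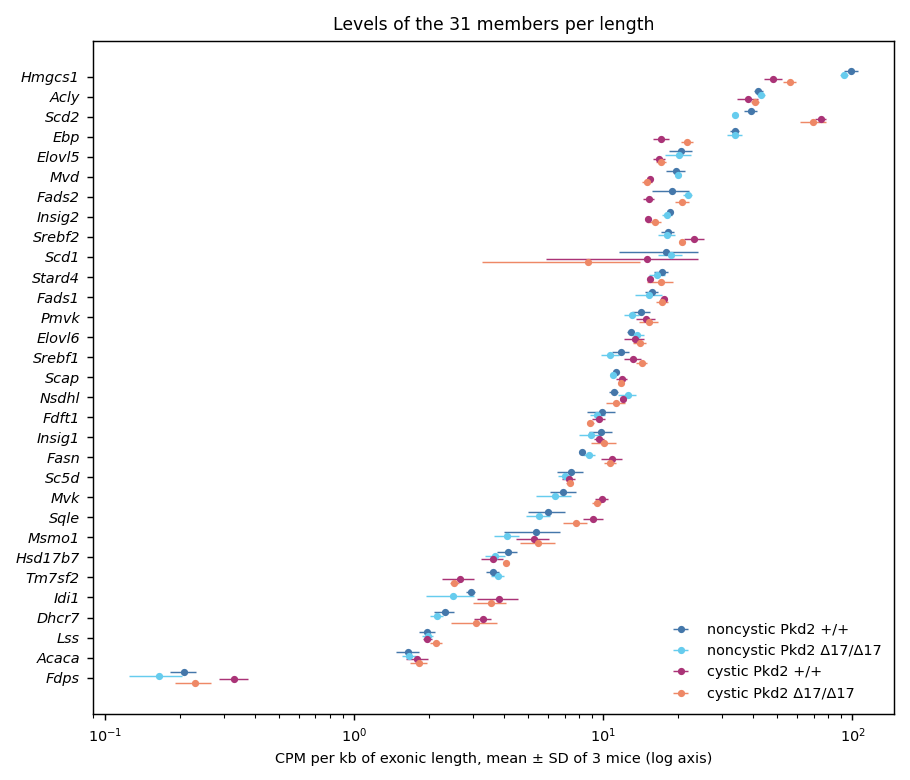
Level of each of the 31 members in CPM per kilobase of exonic length (log axis), mean ± SD of 3 mice, one colour per group, ordered by the noncystic Pkd2 +/+ mean. Hmgcs1 leads in both noncystic groups, and Scd2 lies above it in both cystic groups.

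The first question was how the cystic state moved these genes where Pkd2 was intact. In cystic against noncystic Pkd2 +/+ kidneys 13 of 31 members passed an adjusted p of 0.05 (edgeR quasi-likelihood, Benjamini-Hochberg over 24642 genes), 6 higher and 7 lower. Of all genes tested 16.9% were called higher and 14.2% lower, and the 3 mice of one group lay wholly above or below the other in 18 of 31 members against 41.7% of all genes. Of 30 members with an average log2 CPM of at least 1, 43.3% were called in either direction, against 48.8% of all 13848 genes at that level. The members' share was thus near the background. Their median log2 fold change was 0.00, and that of all genes tested 0.02. Members were called in both directions, as were all genes tested. Hmgcs1 and Ebp were lower by about the same factor, Scd2 was higher, and 9 of the 13 changes were under 1.5-fold.

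Scaling decided part of this split. With library totals in place of TMM the median gene's cystic log2 fold change was 0.158 higher, and 16 members were called, 14 higher and only Hmgcs1 and Ebp lower. The share of all genes called with library totals was not counted, so these numbers have no background beside them. The calls of Mvd, Tm7sf2, Insig2, Elovl5 and Fads2 as lower were then lost, while the 6 members called higher kept their direction and call. Each direction below is therefore relative to the bulk of genes.

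**Figure D2:**
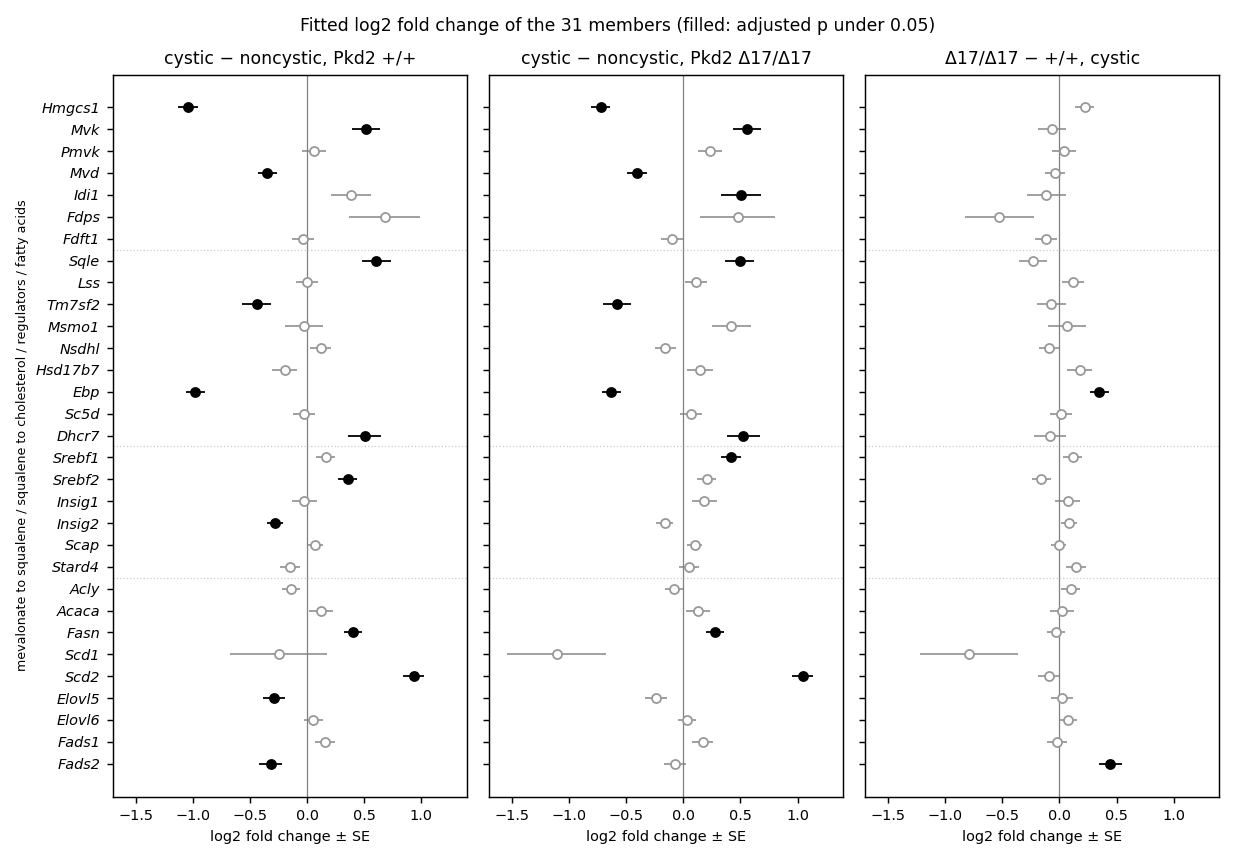
Fitted log2 fold change ± SE of the 31 members in 3 comparisons (cystic minus noncystic with Pkd2 +/+, the same with Pkd2 Δ17/Δ17, and Pkd2 Δ17/Δ17 minus +/+ in cystic kidneys), grouped by role with dotted lines between groups. Filled points passed an adjusted p of 0.05: 13, 11 and 2 members.

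Among the 7 enzymes of the mevalonate route up to squalene, 3 were called in Pkd2 +/+ kidneys, Mvk higher and Hmgcs1 and Mvd lower. Hmgcs1 (chr13:119690379-119708260, GRCm38) condenses acetyl-CoA and acetoacetyl-CoA at the head of the pathway. It was at 485, 428 and 451 CPM in the noncystic and 240, 203 and 218 CPM in the cystic Pkd2 +/+ mice. In Pkd2 Δ17/Δ17 kidneys it stood at 440, 426 and 409 CPM in noncystic and 248, 275 and 249 CPM in cystic mice. All 6 cystic mice lay below all 6 noncystic mice. The log2 fold change was -1.04 (SE 0.085, adjusted p = 1.49e-07, edgeR), a fold of 0.485. In Pkd2 Δ17/Δ17 kidneys it was -0.72 (SE 0.084, adjusted p = 1.27e-05, edgeR). On the opposite strand Gm48342 covers 12.1% of Hmgcs1 exonic bases, and it had 1 to 8 reads per mouse.

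Mvk, which phosphorylates mevalonate, was at 19.5, 20.01 and 15.97 CPM in noncystic and 24.8, 28.1 and 26.2 CPM in cystic Pkd2 +/+ mice. Among Pkd2 Δ17/Δ17 mice it was at 18.8, 13.9 and 18.6 CPM against 26.1, 24.2 and 25.3 CPM. No cystic mouse overlapped a noncystic one. Fitted log2 fold changes were 0.51 (SE 0.12) and 0.56 (SE 0.12), with adjusted p of 0.00386 and 0.00305 (edgeR). Mvd, which decarboxylates mevalonate diphosphate, went the other way. It was at 39.0, 37.5 and 32.9 CPM in noncystic and 29.1, 28.7 and 28.2 CPM in cystic Pkd2 +/+ mice, and at 36.6, 37.6 and 36.5 against 28.5, 28.9 and 26.3 CPM with Pkd2 Δ17/Δ17. Again the groups did not overlap. Log2 fold changes came to -0.35 (SE 0.085, adjusted p = 0.00434) and -0.40 (SE 0.085, adjusted p = 0.00202) by edgeR.

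Idi1, the isomerase of the 5-carbon isoprenoid unit, was called in Pkd2 Δ17/Δ17 kidneys and not in Pkd2 +/+ kidneys, with an interaction of 0.12 (adjusted p = 0.944, edgeR). Its Pkd2 Δ17/Δ17 values were 10.5, 9.00 and 6.66 CPM in noncystic and 14.0, 10.4 and 12.7 CPM in cystic mice, and the groups overlapped by 1 mouse. In Pkd2 +/+ mice it was at 10.02, 10.8 and 10.1 against 11.5, 16.2 and 12.6 CPM, which did not overlap. Its log2 fold changes were 0.51 (SE 0.18, adjusted p = 0.0483) with Pkd2 Δ17/Δ17 and 0.38 (SE 0.17, adjusted p = 0.114) with Pkd2 +/+ by edgeR. The first call was lost without mouse 23, 24, 28 or 30, without mice 27 and 30 together (adjusted p = 0.137, edgeR), with DESeq2 size factors and with only the compared groups, and adjusted p reached 0.218 over all alternatives. With library totals the Pkd2 +/+ value was 0.54 and was called (adjusted p = 0.0226, edgeR). Words of 100 bases shared with other genes make up 27.6% of the Idi1 transcript, so its reads are uncertain.

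Pmvk, Fdps and Fdft1, which act on phosphomevalonate, join isoprenoid units and make squalene, passed in no comparison. Their log2 fold changes in Pkd2 +/+ kidneys were 0.06, 0.68 and -0.04. Fdps rested on 10 to 41 reads per mouse, with 26.7% of its exonic bases inside Gm43738 on the same strand, so its level is uncertain. Fdft1 is uncertain too, since 18.3% of its exonic bases lie inside Ctsb on the opposite strand, which had 12420 to 15985 reads per mouse, and 21.5% of its 100-base words are shared with other genes.

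Among the 16 cholesterol enzymes described here, Hmgcs1 had the highest CPM per kilobase in every mouse. Of the summed CPM of the 16 cholesterol enzymes, Hmgcs1 made up 49.0% to 54.3% in the 6 noncystic mice and 33.1% to 42.0% in the 6 cystic mice. The other 15 enzymes together gave 380 to 444 CPM without cysts and 379 to 415 CPM with cysts, and these ranges overlapped.

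**Figure D3:**
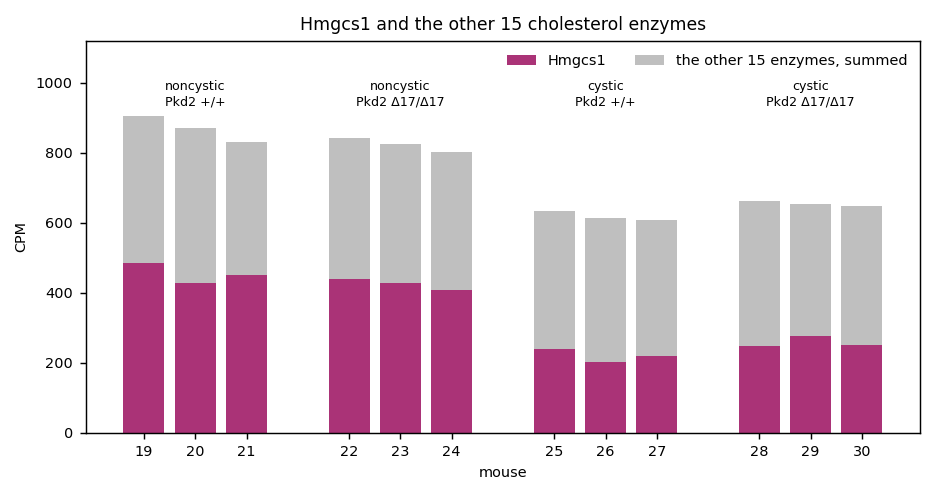
Stacked bars of CPM for each of the 12 mice (3 per group), Hmgcs1 in purple and the other 15 cholesterol enzymes summed in grey. The purple part is shorter in all 6 cystic mice, and the grey part covers 379 to 415 CPM there against 380 to 444 CPM in noncystic mice.

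Of the 9 enzymes from squalene to cholesterol, 4 were called in Pkd2 +/+ kidneys, with Sqle and Dhcr7 higher and Tm7sf2 and Ebp lower. The same 4 were called with Pkd2 Δ17/Δ17. Sqle, the squalene epoxidase, was at 37.2, 35.8 and 26.8 CPM in noncystic and 46.6, 55.7 and 49.5 CPM in cystic Pkd2 +/+ mice. The Pkd2 Δ17/Δ17 mice were at 34.0, 30.3 and 27.2 against 46.9, 37.6 and 44.6 CPM. Cystic mice were the higher ones in each pair of groups. The log2 fold changes were 0.60 (SE 0.13, adjusted p = 0.00129) and 0.50 (SE 0.13, adjusted p = 0.00861) by edgeR, and without mouse 24 the second had an adjusted p of 0.0508.

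Ebp (chrX:8185329-8193512), which moves the sterol ring double bond, had the clearest fall of this group. It was at 74.5, 78.7 and 80.0 CPM in noncystic and 40.8, 36.2 and 41.3 CPM in cystic Pkd2 +/+ mice. The Pkd2 Δ17/Δ17 values were 72.4, 78.3 and 82.6 CPM against 53.1, 50.3 and 47.4 CPM. The 3 levels (both noncystic groups together, cystic Pkd2 Δ17/Δ17, cystic Pkd2 +/+) did not overlap. Fitted log2 fold changes were -0.98 (SE 0.081, adjusted p = 1.68e-07) and -0.63 (SE 0.080, adjusted p = 2.66e-05) by edgeR.

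Tm7sf2, a sterol C14 reductase, was at 15.1, 15.6 and 16.9 CPM in noncystic and 13.2, 9.79 and 12.005 CPM in cystic Pkd2 +/+ mice. With Pkd2 Δ17/Δ17 it was at 15.5, 16.7 and 17.6 CPM against 10.6, 11.5 and 11.3 CPM. The cystic mice were lower in both, without overlap. Log2 fold changes came to -0.44 (SE 0.12, adjusted p = 0.0117) and -0.58 (SE 0.13, adjusted p = 0.00255) by edgeR, and without mouse 26 the first was no longer called. Tm7sf2 shares 12.1% of its exonic bases with Vps51 on the same strand.

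Dhcr7, which completes cholesterol, was at 13.6, 14.7 and 12.2 CPM in noncystic and 17.6, 18.99 and 20.6 CPM in cystic Pkd2 +/+ mice. Among Pkd2 Δ17/Δ17 mice it was at 13.3, 11.8 and 12.4 CPM against 17.7, 14.4 and 21.8 CPM. Neither pair overlapped. Its log2 fold changes were 0.50 (SE 0.14, adjusted p = 0.0111) and 0.53 (SE 0.14, adjusted p = 0.0118) by edgeR. The first call was lost without mouse 21 or 27 and the second without mouse 23 or 30, and adjusted p reached 0.105 over all alternatives. The adrenal gland, whose markers were high in mice 27 and 30, is a steroid-making tissue. Without both mice Dhcr7 stayed called in Pkd2 +/+ kidneys and lost its call in Pkd2 Δ17/Δ17 kidneys, and the part of adrenal tissue was not tested further.

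Lss, Msmo1, Nsdhl, Hsd17b7 and Sc5d, the cyclase and the demethylation and desaturation enzymes between, were called in neither cystic comparison. Their log2 fold changes ran from -0.20 (Hsd17b7) to 0.12 (Nsdhl) with Pkd2 +/+ and from -0.16 (Nsdhl) to 0.42 (Msmo1, adjusted p = 0.0911, edgeR) with Pkd2 Δ17/Δ17. Lss was at 21.2 ± 1.63 CPM in noncystic and 21.3 ± 0.952 CPM in cystic Pkd2 +/+ mice (SD, n = 3), and the 95% interval of its log2 fold change was -0.22 to 0.22.

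**Figure D4:**
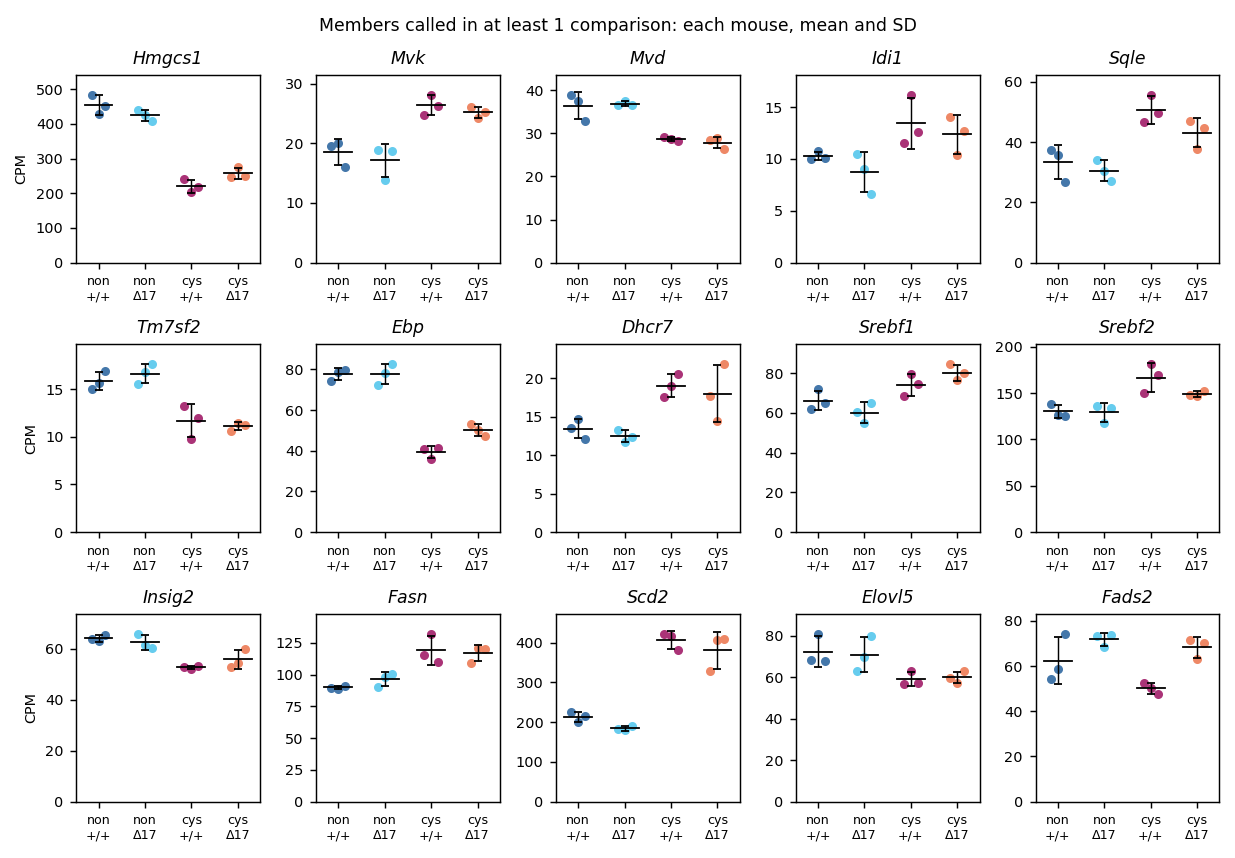
CPM of each mouse (points), with the mean and SD of 3 mice (black), for the 15 members called in at least 1 comparison, each panel with its own axis from 0. In the 9 members called at both Pkd2 genotypes (Hmgcs1, Mvk, Mvd, Sqle, Tm7sf2, Ebp, Dhcr7, Fasn and Scd2) the cystic mice do not overlap the noncystic mice of the same Pkd2 genotype.

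Of the 6 genes of SREBP control and sterol transport, 2 were called in Pkd2 +/+ kidneys, Srebf2 higher and Insig2 lower, and 1 with Pkd2 Δ17/Δ17, Srebf1 higher. Srebf2, which encodes the factor that drives cholesterol genes, was at 139, 127 and 125 CPM in noncystic and 150, 181 and 169 CPM in cystic Pkd2 +/+ mice. In Pkd2 Δ17/Δ17 kidneys it stood at 136, 118 and 134 against 148, 147 and 152 CPM. All cystic mice lay above all noncystic mice. The log2 fold change was 0.35 (SE 0.083, adjusted p = 0.00331) with Pkd2 +/+ and 0.21 (SE 0.083, adjusted p = 0.0887) with Pkd2 Δ17/Δ17 by edgeR. With library totals the Pkd2 Δ17/Δ17 value was 0.36 and was called (adjusted p = 0.00289, edgeR).

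Srebf1, whose SREBP-1 products drive mainly fatty acid genes, was at 62.0, 71.8 and 64.9 CPM in noncystic and 68.3, 79.6 and 74.4 CPM in cystic Pkd2 +/+ mice, which overlapped. The Pkd2 Δ17/Δ17 mice were at 60.6, 54.8 and 65.2 CPM against 84.5, 76.3 and 79.9 CPM, and there the groups were apart. The log2 fold changes were 0.16 (SE 0.086, adjusted p = 0.179) and 0.41 (SE 0.086, adjusted p = 0.00188) by edgeR. With library totals the Pkd2 +/+ value was 0.32 and was called (adjusted p = 0.0053, edgeR). The difference between the 2 fold changes, as the interaction, was 0.25 (SE 0.12, adjusted p = 0.611, edgeR), so it did not pass.

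Insig2, which retains SREBP in the endoplasmic reticulum, was at 63.7, 63.1 and 65.4 CPM in noncystic and 52.7, 52.2 and 53.1 CPM in cystic Pkd2 +/+ mice. With Pkd2 Δ17/Δ17 it was at 65.9, 61.3 and 60.3 against 53.0, 54.6 and 59.9 CPM. The cystic mice were lower in both, and with Pkd2 Δ17/Δ17 by a narrow margin. Fitted log2 fold changes were -0.28 (SE 0.072, adjusted p = 0.00588) and -0.16 (SE 0.072, adjusted p = 0.124) by edgeR. Insig1, its paralog, Scap, the SREBP escort, and Stard4, a cholesterol carrier, passed in no comparison. Their log2 fold changes were -0.02, 0.07 and -0.15 with Pkd2 +/+, and 0.18, 0.10 and 0.05 with Pkd2 Δ17/Δ17.

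Among the 9 fatty acid genes Scd2 and Fasn were called higher and Elovl5 and Fads2 lower in Pkd2 +/+ kidneys. Scd2 (chr19:44293674-44306864), which makes monounsaturated fatty acids, was at 225, 200 and 215 CPM in noncystic and 423, 416 and 382 CPM in cystic Pkd2 +/+ mice. The Pkd2 Δ17/Δ17 values were 183, 180 and 191 CPM against 328, 406 and 408 CPM. The lowest cystic mouse was above the highest noncystic mouse by over 100 CPM. Log2 fold changes came to 0.93 (SE 0.091, adjusted p = 8.9e-07) and 1.04 (SE 0.091, adjusted p = 9.75e-07) by edgeR, a fold of 1.91 and 2.06.

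Fasn, the fatty acid synthase, was at 89.6, 88.9 and 91.4 CPM in noncystic and 115, 132 and 110 CPM in cystic Pkd2 +/+ mice. Among Pkd2 Δ17/Δ17 mice it was at 90.1, 97.8 and 101 against 109, 121 and 120 CPM. Cystic mice were above noncystic mice in both. Its log2 fold changes were 0.41 (SE 0.079, adjusted p = 0.000708) and 0.28 (SE 0.079, adjusted p = 0.0157) by edgeR. The second was lost without mouse 22, 23, 29 or 30, without mice 27 and 30 (adjusted p = 0.0652, edgeR) and without mice 20 and 29 (adjusted p = 0.0726, edgeR). With the fat covariate it was 0.19 (adjusted p = 0.255, edgeR), the highest adjusted p over all alternatives.

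Elovl5 extends polyunsaturated chains. It was at 68.1, 80.9 and 67.6 CPM in noncystic and 56.8, 63.1 and 57.2 CPM in cystic Pkd2 +/+ mice. In Pkd2 Δ17/Δ17 kidneys it stood at 63.0, 69.5 and 79.6 against 59.5, 57.4 and 62.9 CPM, where mouse 22 and mouse 30 nearly met. The log2 fold changes were -0.29 (SE 0.095, adjusted p = 0.027) and -0.24 (SE 0.095, adjusted p = 0.083) by edgeR, and the first was lost without mouse 20, 25 or 27 and with Xist as a covariate. It was also lost without mice 27 and 30 (adjusted p = 0.0981), without mice 20 and 29 (adjusted p = 0.165) and with the fat covariate (adjusted p = 0.143) by edgeR, and adjusted p reached 0.343 over all alternatives.

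Fads2 (chr19:10062765-10101746), the delta-6 desaturase, was at 54.4, 58.5 and 74.3 CPM in noncystic and 52.4, 50.4 and 47.4 CPM in cystic Pkd2 +/+ mice. The Pkd2 Δ17/Δ17 mice were at 73.3, 68.3 and 73.7 CPM in noncystic and 71.5, 63.0 and 70.2 CPM in cystic mice. The cystic Pkd2 +/+ mice were the low ones, and the Pkd2 Δ17/Δ17 groups overlapped. Fitted log2 fold changes were -0.32 (SE 0.10, adjusted p = 0.0233) and -0.07 (SE 0.10, adjusted p = 0.682) by edgeR, and the first was lost without mouse 21 or 27. It was also lost without mice 27 and 30 (adjusted p = 0.104) and with the fat covariate (adjusted p = 0.131) by edgeR, and adjusted p reached 0.286 over all alternatives.

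Acly, Acaca, Elovl6 and Fads1, which supply acetyl-CoA, make malonyl-CoA, extend saturated chains and desaturate at delta-5, passed in no comparison. Their log2 fold changes in Pkd2 +/+ kidneys were -0.14, 0.12, 0.05 and 0.16.

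Scd1 (chr19:44394455-44407879), the paralog of Scd2, varied widely between mice of 1 group. It was at 64.5, 122 and 75.3 CPM in noncystic and 51.1, 44.4 and 125 CPM in cystic Pkd2 +/+ mice. With Pkd2 Δ17/Δ17 it was at 79.4, 96.3 and 98.1 against 62.9, 12.5 and 51.8 CPM. Mouse 29 was far below the rest, mice 20 and 27 the highest. Log2 fold changes came to -0.25 (SE 0.42, adjusted p = 0.716) and -1.11 (SE 0.43, adjusted p = 0.0797) by edgeR. Mouse 29 also had the lowest and mouse 20 the highest summed fat tissue markers. Mouse 27, with the highest Scd1, had 166 CPM of these markers, the most of its group but below every noncystic mouse. Like mouse 30, it also had high adrenal gland markers. Adipoq, the fat cell hormone, was at 0.489 CPM in mouse 29 and 55.2 CPM in mouse 20. Leaving out mouse 27 gave a first fold change of -0.87, and leaving out mouse 20 gave 0.044. With the 7 fat markers other than Lep as a covariate, added after the data were seen, it was 0.84 (adjusted p = 0.00935, edgeR) and the second 0.053 (adjusted p = 0.933, edgeR). That covariate separates cystic from noncystic mice, so neither value isolates the cystic state or fat tissue.

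**Figure D5:**
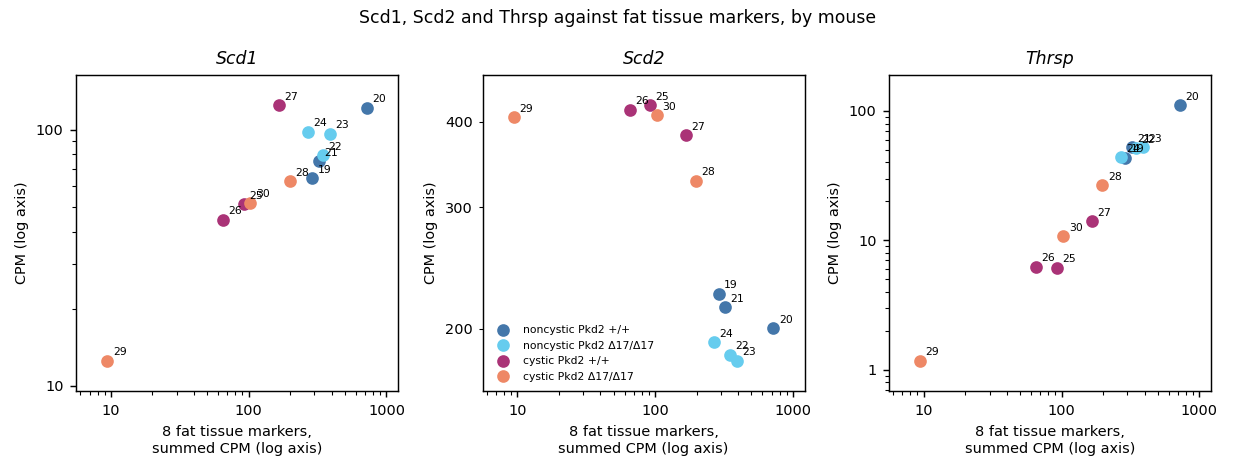
CPM of Scd1, Scd2 and Thrsp (log axes) against the summed CPM of 8 fat tissue markers (log axis), 1 point per mouse, labelled with its number and coloured by group. Mouse 29 is lowest on both axes for Scd1 and Thrsp, and mouse 20 highest for Thrsp, while Scd2 separates the 6 cystic from the 6 noncystic mice.

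Between cystic and noncystic Pkd2 Δ17/Δ17 kidneys 11 of 31 members were called, 7 higher and 4 lower, against 12.8% and 10.2% of all genes tested. Of the 30 members with an average log2 CPM of at least 1, 36.7% were called, against 37.7% of all genes at that level. Their median log2 fold change was 0.11, that of all genes 0.00. With library totals 18 members were called, 14 higher and 4 lower, and the share of all genes called with that scaling was not counted. At both Pkd2 genotypes 9 members were called, all 9 in the same direction. These were Hmgcs1, Mvk, Mvd, Sqle, Tm7sf2, Ebp, Dhcr7, Fasn and Scd2, and the 2 comparisons use different mice.

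The second question was whether the Pkd2 motif deletion moved the members. In noncystic kidneys 0 of 31 were called by edgeR, limma or DESeq2, with 2 members at an unadjusted p under 0.05 and 0.00406% of all genes called. In cystic kidneys 2 members were called, Ebp and Fads2, both higher, where 1.19% of all genes were called higher and 1.04% lower. Of the 30 members with an average log2 CPM of at least 1, 6.67% were called. The share of all genes at that level was not counted for this comparison, so the 2 calls have no background of like level. Cystic groups did not overlap in 6 of 31 members, against 19% of all genes. This comparison and the first one share the cystic Pkd2 +/+ mice, so a gene that is low in those 3 mice moves in opposite directions in the 2.

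Ebp was higher with the deletion in cystic kidneys by a log2 fold change of 0.35 (SE 0.081, adjusted p = 0.0318, edgeR), a fold of 1.27, and the values above did not overlap. Fads2 was higher by 0.45 (SE 0.10, adjusted p = 0.0296, edgeR), a fold of 1.36, again without overlap. Both calls were marginal. Ebp lost its call without mouse 26, 27, 28 or 29 and Fads2 without mouse 26, 27, 28, 29 or 30, so that 0 to 2 members were called when 1 mouse was left out. Neither was called without mice 27 and 30 (adjusted p = 0.0576 for Ebp and 0.191 for Fads2, edgeR) or without mice 20 and 29 (0.132 and 0.0690), and Ebp was not called with the fat covariate (adjusted p = 0.0523, edgeR). Ebp lies on the X chromosome, and with Xist as a covariate its adjusted p was 0.0525. Hmgcs1 had a log2 fold change of 0.22 (95% interval 0.03 to 0.42, adjusted p = 0.217, edgeR). The 95% intervals of Mvk, Mvd and Scd2 were -0.34 to 0.21, -0.24 to 0.16 and -0.30 to 0.11.

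The interaction asks whether the deletion acted differently in cystic and noncystic kidneys. By edgeR, limma and DESeq2 it was called in 0 of 31 members, with 4 at an unadjusted p under 0.05 and 0.0122% of all genes called. Ebp had an interaction of 0.35 (SE 0.11, adjusted p = 0.394, edgeR).

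The other genes of these routes were taken from a list of 35, all tested. In cystic against noncystic Pkd2 +/+ kidneys 18 were called, 3 higher and 15 lower, where 16.9% of all genes tested were called higher and 14.2% lower. Among genes with an average log2 CPM of at least 1, 48.8% were called in either direction. The 35 were not split by level. The 8 with the smallest adjusted p were all lower. Acss2, which makes acetyl-CoA from acetate, had a log2 fold change of -1.09, and Acat2, which makes acetoacetyl-CoA for the sterol route, -0.76. Me1, a source of NADPH, had -1.06, Lpin1, a phosphatidate phosphatase, -1.55, and Nr1h3, the sterol sensor LXRα, -0.93. Acsl3, which activates long-chain fatty acids, had -0.70, Acacb, the mitochondrial acetyl-CoA carboxylase, -1.28, and Thrsp, a lipogenic protein abundant in fat, -2.97. All 8 stayed called under every alternative tried, but the Thrsp fold change ran from -3.47 without mouse 27 to -1.02 with the fat covariate (adjusted p = 0.000732, edgeR). The median of the 35 was -0.08, beside 0.02 for all genes.

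Thrsp followed the fat markers between mice. It was at 43.4, 111 and 52.6 CPM in noncystic and 6.16, 6.27 and 14.0 CPM in cystic Pkd2 +/+ mice, and 1.17 CPM in mouse 29. Of the 8 fat markers 6 were called lower in those cystic kidneys (14.2% of all genes tested), Lep was called higher (16.9%) and Retn was not called. Their summed CPM was 290 to 722 in noncystic and 65.4 to 166 in cystic Pkd2 +/+ mice. The fat covariate gave the values above, but it separates cystic from noncystic mice. The part of fat tissue in the Thrsp and Scd1 values was not tested otherwise.

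Of the 35, 16 were called between cystic and noncystic Pkd2 Δ17/Δ17 kidneys, 3 higher and 13 lower, against 12.8% and 10.2% of all genes tested. Among genes with an average log2 CPM of at least 1, 37.7% were called in either direction. The deletion in cystic kidneys gave 2 calls, both higher, against 1.19% of all genes called higher, a share not counted by level. The calls were Acss2 at 0.49 (SE 0.098, adjusted p = 0.0173) and Acsl3 at 0.40 (SE 0.098, adjusted p = 0.0403) by edgeR. Acss2 was at 57.0, 48.6 and 46.5 CPM with Pkd2 +/+ and 74.8, 75.8 and 62.6 CPM with Pkd2 Δ17/Δ17, without overlap. Its call was lost without mouse 27, 28 or 29, and that of Acsl3 without mouse 25, 27, 28 or 29. Without mice 20 and 29 neither was called (adjusted p = 0.109 and 0.129, edgeR), and Acsl3 was also lost without mice 27 and 30 (0.141) and with the fat covariate (0.0651).

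Markers of other cells moved with the cystic state. All 10 proximal tubule markers were lower in cystic Pkd2 +/+ kidneys, with a summed CPM of 5632 to 7232 against 15916 to 16560, and in cystic Pkd2 Δ17/Δ17 kidneys it was 7457 to 8973. All 8 fatty acid oxidation genes were lower too, with a summed CPM of 1543 to 1648 against 2629 to 3212. All 8 macrophage markers were higher, at 455 to 623 summed CPM against 184 to 192, and at 318 to 438 in cystic Pkd2 Δ17/Δ17 kidneys, where 4 of the 8 were called lower by the deletion. All 8 cell cycle genes were higher, at 466 to 515 summed CPM against 141 to 211. Of all genes tested 16.9% were called higher and 14.2% lower in cystic Pkd2 +/+ kidneys, and 1.04% lower by the deletion in cystic kidneys. At an average log2 CPM of at least 1, 48.8% were called in either direction in the first of these. The marker lists were not split by level. Other lists were called in part. Of 8 fibroblast and matrix genes 5 were called higher and 2 lower, with a summed CPM of 3192 to 4870 against 1967 to 2178, and of 6 collecting duct markers 3 were called higher, at 1935 to 3546 against 1166 to 1338 summed CPM. Of 4 thick ascending limb markers 1 was called higher and 2 lower, at 1630 to 2325 against 2644 to 3159 summed CPM, and their sum was 3168 to 3256 CPM in cystic Pkd2 Δ17/Δ17 kidneys. The part of these shifts in the members' values was not tested.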

How the data were processed

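Total RNA from flash-frozen whole kidneys was sequenced. Per the study's methods the authors trimmed reads with Trim Galore 0.6.3, aligned them to GRCm38 with STAR 2.5.3a and deposited raw counts of uniquely mapped reads per Ensembl gene. The strand column used is not given in the sources used here, so antisense overlaps are uncertain. Precision is set by 3 mice per group and by the reads per gene.

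Genes with a mean log2 CPM (prior count 2) of at least -3 were kept. edgeR 4.0.16 in R 4.3.3 was fitted with TMM scaling, quasi-likelihood and 1 mean per group over 12 mice (8 residual degrees of freedom, also used for 95% intervals), and p-values were adjusted by Benjamini-Hochberg. limma 3.58.1 (the study's method) and DESeq2 1.42.0 were alternatives, with other scalings and filters, covariates and each mouse left out. The fit was tried on simulated data with few and larger changes, which does not test changes of under 1.5-fold or the choice of scaling. CPM per kb used GENCODE M21 exons (99.93% of identifiers matched). All members are named, in order of role, those called with each mouse's value. Members and lists were chosen with earlier results of these data known. Rows without a gene name took at most 0.0254% of reads.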

Additional observations from a re-analysis of the deposited data

How the results depend on the processing

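In cystic against noncystic Pkd2 +/+ kidneys 10 to 13 members were called when 1 mouse was left out, and 4 when a fold of 1.5 was required as well. With Pkd2 Δ17/Δ17 the corresponding numbers were 8 to 12 and 3, and limma with library totals called 20 and edgeR with library totals 18. The share of all genes called was not counted under the alternatives. The counts in this section therefore show only how the members' calls changed, without a background. For the motif deletion in cystic kidneys the range was 0 to 2 when 1 mouse was left out. It was 1 with only the compared groups, with Xist or with the fat markers as a covariate, and 0 with the fold requirement, without mice 27 and 30, and without mice 20 and 29. With no filter on low counts the interaction was called in 1 member, Scd1, which with that setting was also called in the other comparisons of cystic mice. For the deletion in cystic kidneys that was its only call in 17 alternatives, at an adjusted p of 1.9e-14 against 0.438 with the filter (edgeR). Scd1 ran from 12.5 to 125 CPM in cystic mice, and why the filter changed its adjusted p was not tested. The deletion in noncystic kidneys gave 0 calls under every alternative. Scd1 changed sign in Pkd2 +/+ kidneys when 1 mouse was left out (-0.87 to 0.044, positive without mouse 20 or 26), without mice 20 and 29 (0.068) and with fat markers as a covariate (0.84), and in Pkd2 Δ17/Δ17 kidneys with that covariate (0.053). The cause was not tested. No called member changed direction. The left-out pairs and the fat covariate were chosen after seeing the data, and that covariate separates cystic from noncystic mice. No paired analysis was possible because the groups share no replicate numbers.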

Other observations

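Lep, the leptin gene, was the exception among the fat tissue markers. It was at 0.623, 1.31 and 1.32 CPM in noncystic and 4.96, 6.02 and 9.04 CPM in cystic Pkd2 +/+ mice, without overlap, while Adipoq was at 23.9, 55.2 and 29.7 against 6.85, 5.92 and 14.6 CPM. The log2 fold change of Lep was 2.61 (SE 0.46, adjusted p = 0.000268, edgeR) and that of Adipoq -1.99 (SE 0.58, adjusted p = 0.0142, edgeR). With Pkd2 Δ17/Δ17 they were 2.17 and -1.79, and both passed there too.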
